A study of Mus musculus with 3 samples.

Results

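The comparison described here is that of mouse liver after ischemia and reperfusion with liver after a sham operation, that is, the net difference in mRNA after the whole insult. It rests on 1 library a side, and a library of liver after ischemia alone is given beside them. Members were all genes that could be read on both sides. They had an FPKM (mapped fragments scaled by transcript length and library size) of at least 1 in the sham or the IR library, status OK from the authors' software in both, a locus off chromosomes X and Y and no major urinary protein (Mup) name. This left 10361 of the 23361 genes in the files. Of the genes left out, 1069 lay on X or Y, 20 were Mup genes, 122 lacked status OK, and 11808 of the others had an FPKM under 1 on both sides. Changes are given as log2(FPKM + 1) in IR minus sham. A gene was called, and is said to have risen or fallen, where FPKM + 1 differed at least 2-fold. A gene with an FPKM under 1 in 1 library is a member only through the other. Genes under it in both are not counted, which raises the share of calls in lists with many low genes.

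All mice were C57BL/6J, labelled male and aged 8 to 10 weeks, and all had a midline laparotomy under chloral hydrate after a fast. The Sham group was not clamped, and its livers were removed 90 min later. In the warm ischemia (WI) group the portal triad to the left and median lobes was clamped for 90 min, and livers were taken at the end of the clamp. In the IR group the same 90 min of occlusion was followed by 120 min of reperfusion without further anesthetic. No sham group was kept for as long as the IR group, so occlusion, reperfusion and the added time after surgery cannot be told apart in this comparison. Each group has a single library, the pooling of mice is not stated, and no difference has a replicate check.

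The labels and the libraries disagreed on sex. Xist, the RNA of the inactive X chromosome, had an FPKM of 18.9 in the sham library, 20.1 in the WI library and 1.29 in the IR library. The Y-linked genes Ddx3y, Eif2s3y and Uty were at 8.58, 13.2 and 1.28 in the IR library, and the sham library listed all of them at 0. The sham and WI libraries thus carry the mark of female liver and the IR library that of male liver, whatever their label. Every difference between IR and sham, on autosomes too, is therefore also a difference between a library with male marks and a library with female marks, and surgery and sex cannot be told apart by design. Values of genes known to differ between the sexes in mouse liver are given beside the results. The summed FPKM over all genes was 475754 in the sham library, 487912 in the WI library and 712423 in the IR library, and the Mup genes, made mainly in male liver, held 11100, 10271 and 89648 of these. Dividing each library by its own sum (TPM) moves the median change of the members from 0.06 to -0.40. Where that turns the sign of the median of a list described below, it is said beside its counts.

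Reperfusion brings oxygen and blood cells back to tissue that has been without either. In liver it is known to raise genes that heat shock factor, AP-1, NRF2 and NF-kB control, and to bring neutrophils into the sinusoids, where Kupffer cells, the resident macrophages, and sinusoidal endothelium are the first cells in contact with blood. Hepatocytes make most plasma proteins and release glucose in the fasted state, and the RNAs of both programs are among the most abundant in the organ.

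Heat shock chaperones, neutrophil markers, chemokines and feedback inhibitors of cytokine signaling were among the genes that rose in the IR library, and Kupffer cell markers among those that fell. Of the 10361 members, 552 (5.33% of those compared) were at least 2-fold higher in IR and 218 (2.10%) at least 2-fold lower. The deposited 95% bounds of the FPKM are those of Cuffdiff's count model and hold nothing on how mice vary. They did not overlap between the libraries for 268 (2.59%) of the genes called higher and 99 (0.956%) of those called lower, and "bounds apart" refers to them below. The changes were wider upward than downward, since 126 genes were at least 4-fold higher and 14 at least 4-fold lower, and 53 were at least 8-fold higher and 4 at least 8-fold lower. The median change was 0.06 with a standard deviation of 0.64 over genes, and the median error of a change under Cuffdiff's model was 0.46. Changes by any amount were about evenly split, with 5678 members (54.8%) higher in IR. The share of calls that were higher was 71.7% on the deposited scale and 64.1% after division by the median ratio of the libraries, but 20.1% as TPM (239 higher and 950 lower) and 30.7% with a common sum over the genes kept (289 and 651). A rise or fall below is thus a statement on the deposited scale, and the counts of each list as TPM are given beside it. The counts of a list stand against the shares over all members, 5.33% higher and 2.10% lower. As TPM these shares were 2.31% and 9.17%.

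**Figure D1:**
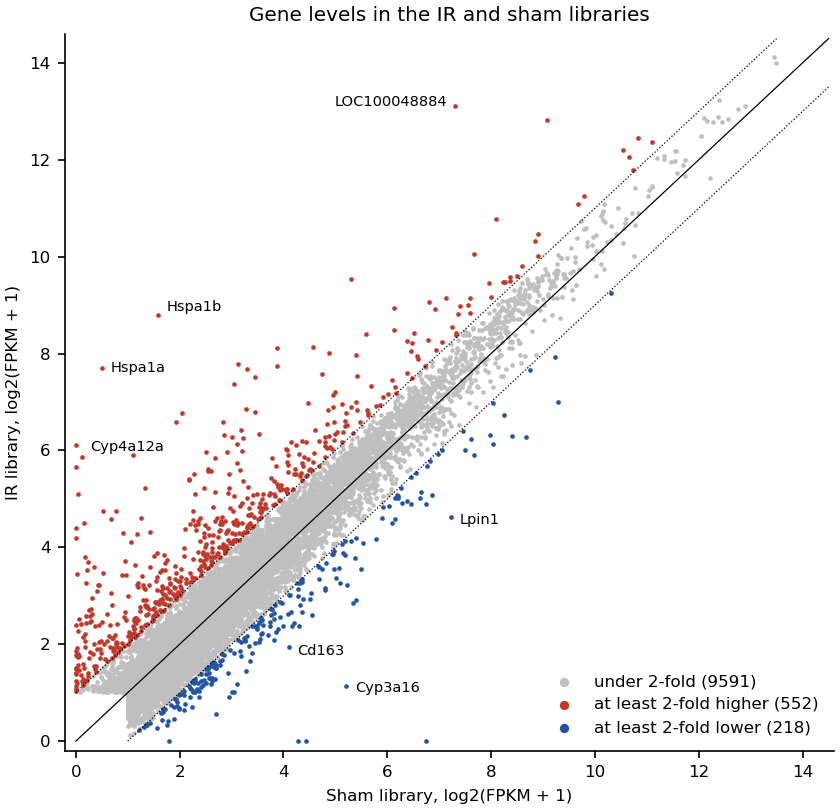
Each point is 1 of the 10361 members, with log2(FPKM + 1) in the sham library on the x axis and in the IR library on the y axis. The solid line marks equal levels and the dotted lines 2-fold differences, beyond which lie 552 genes (red) above and 218 (blue) below, with Hspa1a and Hspa1b farthest above the line among genes whose bounds are apart.

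Heat shock chaperones bind unfolded proteins and are transcribed under heat shock factor when proteins denature. Of 27 members on the list, 11 rose and 0 fell, 8 of the rises with bounds apart, and the median change of the list was 0.78 (8 rose as TPM, with a median of 0.24). The inducible Hsp70 gene Hspa1b had an FPKM of 1.99 in the sham library (95% bounds 0.837 to 3.15), 8.36 in the WI library (4.42 to 12.3) and 442 in the IR library (140.4 to 743). Its neighbour Hspa1a was at 0.425 in sham (0.113 to 0.736), 3.89 in WI (1.90 to 5.88) and 206 in IR (84.0 to 329). Both were thus already above sham after ischemia and were far higher in the IR library, with changes of 7.21 and 7.18 against sham. They encode nearly the same protein, and reads that match both could have been divided between them, so their separate values are uncertain. The small heat shock protein Hspb1 was at 7.77 in sham, 6.17 in WI and 220.0 in IR, a change of 4.65, and the Hsp70 cochaperone Dnajb1 at 7.23, 9.87 and 164, a change of 4.33. These genes were within their bounds of sham after ischemia and stood apart in the IR library. Hsph1, a nucleotide exchange factor of Hsp70, rose from 7.01 to 76.1, the Hsp90 gene Hsp90aa1 from 28.2 to 256, the cochaperone Bag3 from 4.84 to 46.6 and Hspb8 from 82.4 to 304. Constitutive or organelle chaperones moved less. The abundant Hspa8 rose from 477 to 1424 and the mitochondrial Hspe1 from 187 to 509, both with overlapping bounds, while the endoplasmic reticulum cochaperone Dnajc3 had the lowest change of the list, -0.43.

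The promoters of the 4 heat shock genes with the largest rise among those that hold the core of a heat shock element are shown, since they are the sequence by which heat shock factor is known to act on these genes. They are RefSeq sequences of GRCm38.p6, the mm10 build of the files, each 300 bases from 250 before to 50 after the start, and capitals mark every match to TTCNNGAA or GAANNTTC. Hspa1a lies at chr17:34972107-34972406, minus strand, Hspa1b at chr17:34959189-34959488, minus strand, Hspb1 at chr5:135887669-135887968, plus strand, and Hsph1 at chr5:149636266-149636565, minus strand.
Hspa1a: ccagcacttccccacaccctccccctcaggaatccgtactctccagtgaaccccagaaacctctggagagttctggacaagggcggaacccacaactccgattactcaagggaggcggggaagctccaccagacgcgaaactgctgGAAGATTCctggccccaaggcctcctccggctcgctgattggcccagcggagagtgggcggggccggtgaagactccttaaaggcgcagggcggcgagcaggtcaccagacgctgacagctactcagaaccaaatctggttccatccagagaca
Hspa1b: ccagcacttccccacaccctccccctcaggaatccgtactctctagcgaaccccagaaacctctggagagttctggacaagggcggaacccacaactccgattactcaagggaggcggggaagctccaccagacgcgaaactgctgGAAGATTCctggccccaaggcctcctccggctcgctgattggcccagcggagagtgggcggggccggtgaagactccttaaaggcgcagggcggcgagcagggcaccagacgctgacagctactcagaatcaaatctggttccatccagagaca
Hspb1: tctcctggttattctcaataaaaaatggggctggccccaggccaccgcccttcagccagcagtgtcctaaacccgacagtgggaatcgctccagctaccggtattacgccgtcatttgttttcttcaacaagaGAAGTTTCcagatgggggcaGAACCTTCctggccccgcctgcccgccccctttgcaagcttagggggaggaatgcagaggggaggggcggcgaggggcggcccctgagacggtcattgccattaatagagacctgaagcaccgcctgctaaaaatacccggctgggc
Hsph1: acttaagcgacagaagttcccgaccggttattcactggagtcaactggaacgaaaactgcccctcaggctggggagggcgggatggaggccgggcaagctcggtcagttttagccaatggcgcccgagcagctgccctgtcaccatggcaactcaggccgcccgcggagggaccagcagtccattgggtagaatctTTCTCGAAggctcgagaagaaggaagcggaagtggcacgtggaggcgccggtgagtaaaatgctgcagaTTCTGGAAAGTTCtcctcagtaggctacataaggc
The Hspa1a and Hspa1b promoters have the same base at 296 of 300 positions (98.7%), and their single match begins 104 bases before the start. Hspb1 has matches 117 and 97 bases before its start. Hsph1 has 1 match that begins 54 bases before its start and a pair that overlap each other just downstream of it. Each pattern reads the same on both strands and the patterns may overlap. A match was found in 12 of the 22 promoters that the table gives for the 27 heat shock members. It was found in 12.1% of the promoters of the 7813 members that have one, and in 15.1% of all 32817 promoters of the table. Among the 8 list members that rose and have a promoter, 7 had a match, Dnajb1 being the exception, while Chordc1, with 5 matches, changed by 0.11. Only 75.4% of all members matched a promoter, too few for a comparison of motif shares between rising and falling genes over the whole set, which is void for that reason. A match is a description of the letters and no evidence of binding.

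The unfolded protein and integrated stress response slows translation and raises folding capacity when the endoplasmic reticulum or the supply of amino acids is disturbed. It had the highest median of the stress lists with over 10 members, 1.09, with 13 of 24 members rising and 0 falling (5 rises and 1 fall as TPM, with a median of 0.56). Ppp1r15a (GADD34), which restores translation by dephosphorylating eIF2, rose from 7.98 in sham and 7.76 in WI to 47.4 in IR, with bounds apart. Asns, asparagine synthetase, was almost absent in sham and WI at 0.0649 and 0.176 and reached 4.35 in IR. Xbp1, the transcription factor spliced by IRE1, went from 41.7 to 65.2 and 185. The transcription factor Atf4 rose from 35.6 to 96.4 and the chaperone Hspa5 (BiP) from 151 to 372, both with overlapping bounds. Ddit3 (CHOP) rose from 3.97 to 19.4, but it shares its locus with Mars and its lower bound in IR was 0.850.

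The NRF2 and heme stress list covers antioxidant and iron-handling genes. It had 6 rises among 18 members and 0 falls, with 17 of 18 members higher by any amount (11 of 18 as TPM, with 4 rises). Hmox1, heme oxygenase, rose from 22.6 to 280 with WI at 18.1, and Srxn1, which reduces oxidized peroxiredoxin, from 10.6 to 79.5 with WI at 12.99. Osgin1 was higher in WI than in sham, at 30.9, 69.8 and 148 in sham, WI and IR, but the bounds of sham and WI overlapped. The ferritin chains Fth1 and Ftl1 were high throughout and not called, at 1150 and 2345 in sham and 2187 and 4211 in IR. Metallothioneins bind zinc, and Mt1 and Mt2 followed another course: they were lower in WI than in sham and higher in IR. Mt1 was at 1829, 788 and 5558 in sham, WI and IR, and Mt2 at 1493, 359 and 4713, with overlapping bounds between sham and IR. Of 7 members of the metallothionein and zinc transport list 4 rose and 0 fell (2 as TPM).

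Genes that the hypoxia-inducible factors are known to control were mixed. Of 23 members 6 rose and 0 fell, and 9 were lower by any amount (4 rose and 3 fell as TPM). The glycolytic regulator Pfkfb3 rose from 3.21 to 14.9 and the glucose transporter Slc2a1 from 6.01 to 23.7, and neither was above sham by its bounds after 90 min of ischemia (3.44 and 4.40). Pdk1, another textbook target, was at 25.7 in sham and 12.7 in IR, a change of -0.96 that was not called. Hif1a itself rose from 10.4 to 23.2 with overlapping bounds. The p53 targets showed 3 rises among 16 members (Fas, Aen and Cdkn1a), none with bounds apart, and a list median of -0.03 (0 rises and 2 falls as TPM). In the BCL2 family of 16 members, which sets the threshold of mitochondrial cell death, 2 protective genes rose and 0 genes fell, and the median of 0.17 turned to -0.32 as TPM (1 rise and 2 falls). They were Bcl2l1 (BCL-XL), which went from 15.9 to 50.9 with bounds apart, and Mcl1, from 30.3 to 73.5. Bmf, a death-promoting member, was at 3.61 in sham and 1.58 in IR, a change of -0.84.

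Immediate early genes are transcribed within minutes of a stimulus without new protein. Of 25 members 11 rose, 10 of them with bounds apart, and 0 fell (11 rises and 2 falls as TPM). Atf3, a repressor induced by many stresses, went from 8.72 in sham and 5.76 in WI to 114 in IR, a change of 3.56. Ier3 went from 1.68 to 18.8 and Junb from 25.7 in sham and 42.8 in WI to 189 in IR. Fos was at 8.31, 28.9 and 40.6, and thus had most of its IR level at the end of ischemia. Jun, Egr1 and Zfp36 were high in the sham library already, at 71.7, 60.2 and 83.9, and were not called at 111, 88.6 and 154 in IR. Another 5 genes of the list did not reach an FPKM of 1 in sham or IR, among them Egr3, listed at 0 in sham and 0.0736 in IR. Among the phosphatases that switch off MAP kinases and the GADD45 genes, 6 of 14 rose and 0 fell (3 as TPM). Gadd45a rose from 6.73 to 44.7, Gadd45b from 12.6 to 56.6 and Dusp5 from 0.938 to 5.36, all with bounds apart, and Gadd45b had been lower in WI, at 3.90.

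**Figure D2:**
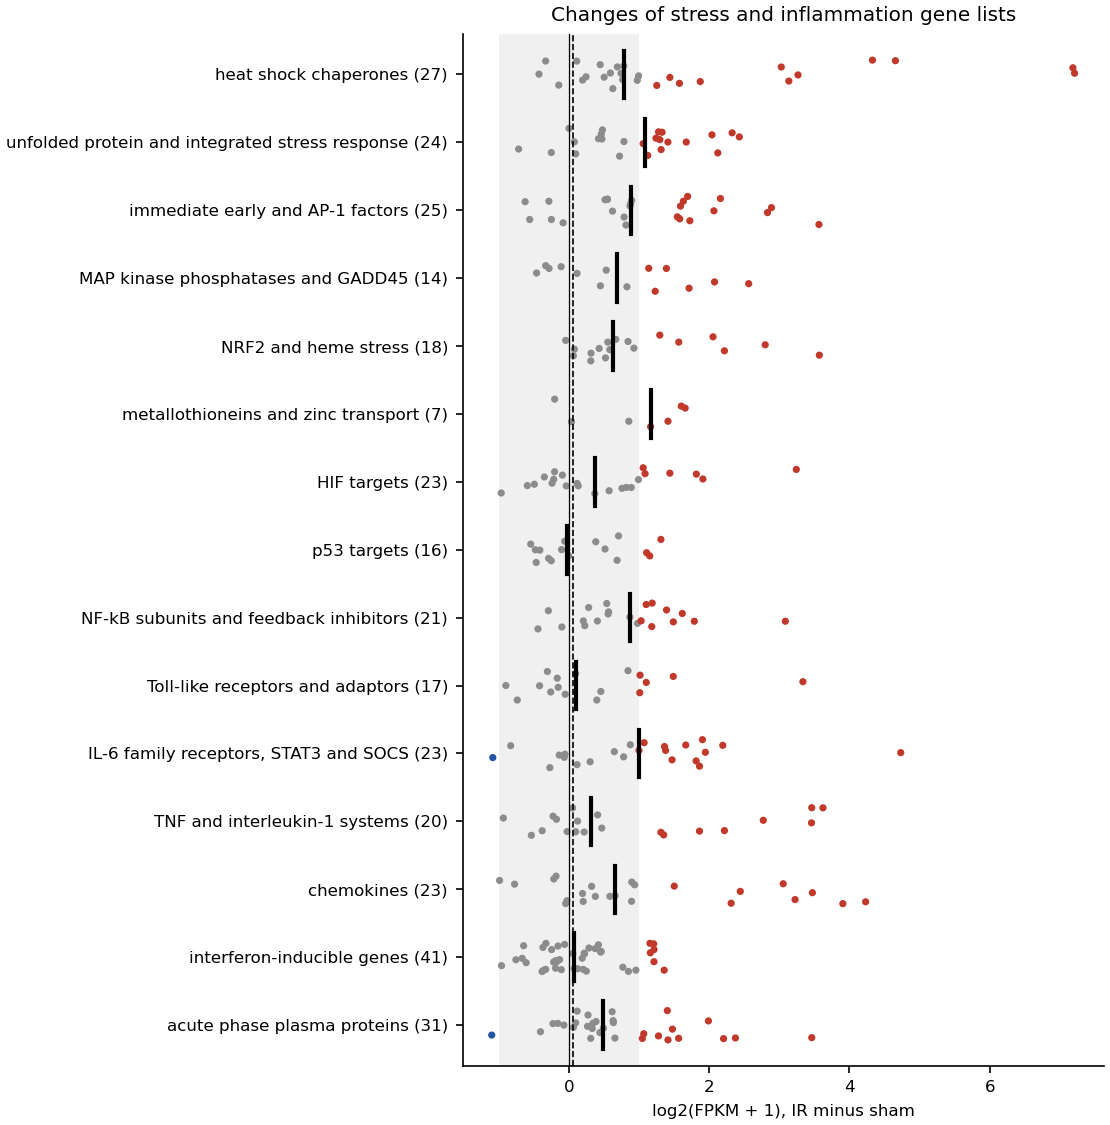
Changes in log2(FPKM + 1), IR minus sham, of the members of 15 stress and inflammation lists, 1 point a gene, red where called higher and blue where called lower, with the number of members in parentheses. Black bars are list medians, the dashed line is the median of all members (0.06) and the grey band holds changes under 2-fold. The medians of the lists plotted run from -0.03 for p53 targets to 1.17 for metallothioneins and zinc transport, and the heat shock list holds the 2 largest changes.

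NF-kB is held in the cytoplasm by inhibitors that are among its own target genes. Of 21 subunits and feedback inhibitors 9 rose, 6 with bounds apart, and 0 fell, with a median of 0.87 (3 rose as TPM, median 0.40). Bcl3, an atypical inhibitor that enters the nucleus, had the largest change, from 4.81 in sham and 8.45 in WI to 48.4 in IR. The ubiquitin-editing enzyme Tnfaip3 (A20) rose from 1.45 to 6.51 and its partners Tnip1 and Tnip2 from 2.19 to 7.95 and from 1.53 to 7.75. Nfkbia, the classical inhibitor, was not called, at 32.5 in sham and 47.8 in IR. Of 17 Toll-like receptors and adaptors 5 rose, 2 with bounds apart, and 0 fell. The list median of 0.10 turned to -0.44 as TPM (1 rise and 2 falls). Cd14, the coreceptor for endotoxin, rose from 9.99 in sham and 5.31 in WI to 110.0 in IR, and the adaptor Myd88 from 7.48 to 22.8. Tlr2 rose from 1.80 to 4.65 with overlapping bounds. The flagellin receptor Tlr5 was at 2.83 in sham and 1.06 in IR, a change of -0.90.

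The IL-6 family signals through STAT3, which raises the SOCS proteins that switch it off. Of 23 members of the list 12 rose, 9 with bounds apart, and 1 fell (7 rose and 2 fell as TPM). Socs3 was at 3.14, 5.38 and 109 in sham, WI and IR, Socs1 at 0.424, 0.400 and 4.49 and Socs2 at 16.003, 6.56 and 58.8. The kinase Pim1, a STAT target, rose from 5.23 to 27.5, and the cytokine Osm (oncostatin M) from 0.0199 to 2.82. The IL-6 receptor chain Il6ra was the gene that fell, from 29.8 in sham and 14.5 in WI to 13.5 in IR. Il6, Lif and Il11 themselves stayed under the filter, with Il6 listed at 0 in sham and 0.152 in IR. The liver library thus held high levels of the feedback genes and very little RNA of the ligands, apart from Osm. In the TNF and interleukin-1 systems 8 of 20 members rose and 0 fell (6 rises and 1 fall as TPM, where the list median of 0.31 turned to -0.18). The decoy receptor Il1r2 rose from 0.134 to 12.96, the receptor antagonist Il1rn from 4.65 to 61.3, Il33, an alarmin, from 0.930 to 12.2 and Il1b from 4.24 to 23.4. Il1a was level, at 4.94 and 5.16, and Tnf stayed under the filter, listed at 0 in sham and 0.808 in IR.

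Chemokines draw leukocytes out of the blood. Of 23 members 8 rose, all with bounds apart, and 0 fell (8 rises and 2 falls as TPM). Those of neutrophils were Cxcl1, at 8.13, 21.1 and 84.3 in sham, WI and IR, and Cxcl2, at 0.591, 0.308 and 22.9. Cxcl3 was listed at 0 in sham and WI and was at 1.83 in IR. Those of monocytes and lymphocytes were Ccl2, at 1.08, 2.55 and 16.3, Ccl3, at 0.175, 0.473 and 12.03, Ccl4, at 0.440, 0.736 and 26.0, Ccl7, at 0.225, 0.208 and 5.66, and Cxcl10, at 3.76, 10.4 and 22.6. The files hold 31 genes of the list, and those that did not pass the filter are not counted. Of the genes that rose, Cxcl2, Cxcl3, Ccl3, Ccl4 and Ccl7 were under it in sham and are members through the IR library alone, which raises the share that rose. Cxcl14, Ppbp and Ccl12 are also members through the IR library alone and were not called. Cxcl1, Ccl2 and Cxcl10 were between 2- and 3-fold above sham in FPKM after ischemia, with bounds that overlapped those of sham. Cxcl12, Pf4 and the other list members were not called, and Ccl24 had the lowest change, -0.99, at 4.38 in sham and 1.71 in IR. Adhesion molecules moved both ways, with 4 rises and 2 falls among 14 members, as deposited and as TPM. The endothelial Icam1 rose from 5.58 to 23.4 and Sele (E-selectin) from 0.0249 to 2.49, while Vcam1 fell from 30.5 in sham and 7.76 in WI to 10.8 in IR and the lymphocyte integrin chain Itgal from 6.67 to 1.66. Sele and Selp lie near each other on chromosome 1 and both were higher, but the bounds of Selp reached 0 and its locus is shared with F5.

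Interferon-inducible genes stood near the other members. Of 41 members 6 rose, none with bounds apart, and 0 fell, with a median of 0.08 that turned to -0.44 as TPM (0 rises and 4 falls). Isg15, a ubiquitin-like protein, had the largest change, at 13.8, 24.9 and 37.0 in sham, WI and IR. Irf7, the transcription factor that amplifies the response, was at 58.8, 41.4 and 29.7, a change of -0.96. Gbp1 is not on the list, although other Gbp genes are, and it fell from 5.53 in sham to 0.470 in IR with bounds apart. Tgtp1, a GTPase induced by interferon gamma, was at 9.79 in sham, 46.7 in WI and 6.08 in IR, so its high level after ischemia was absent from the IR library.

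Neutrophil markers were the cell marker list with the largest shift. Of 14 members 12 rose, 11 with bounds apart, and 0 fell, with a median of 1.94 (8 rose as TPM, median 1.46), and their summed FPKM was 40.2 in sham, 28.2 in WI and 521 in IR. The files hold 19 genes of the list, and those that did not pass the filter are not counted. Clec4d, Mmp8 and Cxcr2, which rose, and Itgam, which was not called, were among the members under the filter in sham. Such genes are members through the IR library alone. The filter thus raises the share that rose. S100a8 and S100a9, the calcium-binding proteins that fill the neutrophil cytoplasm, were at 13.6 and 8.86 in sham, 9.17 and 8.07 in WI and 212 and 204 in IR. Retnlg rose from 1.53 to 36.6, the collagenase Mmp8 from 0.140 to 8.59, the lectin Clec4d from 0.156 to 10.6 and the chemokine receptor Cxcr2 from 0.127 to 3.65. The granule proteins of immature neutrophils were near 0 in both libraries: Mpo was at 0.0598 in sham and listed at 0 in IR, and Elane, Camp and Ltf were at 0.0955, 0.152 and 0.124 in sham and 0.118, 0.0953 and 0.237 in IR. In bulk liver more or fewer cells of a type and more or less RNA per cell cannot be told apart. The rise of neutrophil markers moves with those of the inflammatory lists above, some members of which neutrophils express, and its part in them was not tested. Globin RNA also rose, with 4 of 6 erythroid members called, none of them with bounds apart or as TPM. Of the called genes Hba-a1 and Hba-a2 share a locus, as do Hbb-b1 and Hbb-b2, so the 4 calls are not separate values. Hba-a1 was at 249, 260.0 and 700.2 in sham, WI and IR.

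Kupffer cell and macrophage markers moved the other way. Of 16 members 10 fell, 6 with bounds apart, and 0 rose, with a median of -1.19 (13 fell as TPM), and their summed FPKM was 1089 in sham, 628 in WI and 481 in IR. The scavenger receptor Cd163 was at 16.2 in sham (7.51 to 24.8), 4.02 in WI (1.98 to 6.06) and 2.84 in IR (1.201 to 4.47). The lectin Clec4f, which in mice marks Kupffer cells, was at 115, 65.3 and 32.7, Timd4 at 13.6, 8.16 and 3.78, Cd5l at 203, 90.4 and 59.0, and the growth factor receptor Csf1r at 36.2, 20.6 and 8.33. In each of these the WI value lay between those of sham and IR. Not every marker of the list was lower. Cd68 was at 18.5 in both sham and IR, Marco was at 20.9 and 25.3, and Ccr2, the receptor of recruited monocytes, stayed under the filter at 0.879 and 0.932. Emr1 (F4/80) fell from 22.5 to 5.06, and the sialoadhesin gene Siglec1 and Emr4, both macrophage genes outside the list, were also among the 15 largest falls.

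Sinusoidal endothelial markers were lower in 15 of 17 members by any amount, with a median of -0.54, 2 falls and 1 rise (11 falls and 0 rises as TPM). The falls were those of the mannose receptor Mrc1, from 19.6 to 8.68, and of the VEGF receptor Kdr, from 10.9 to 4.80. Both had overlapping bounds. The rise was that of Lyve1, the hyaluronan receptor, which was at 11.2, 2.73 and 33.4 in sham, WI and IR. Stab1 and Stab2, the scavenger receptors of these cells, were not called, at 6.96 and 8.05 in sham and 4.21 and 5.17 in IR. Of 16 stellate cell markers 0 rose and 1 fell, and the median of 0.090 turned to -0.33 as TPM (0 rises and 6 falls). The gene that fell was the retinol-esterifying Lrat, from 4.96 to 1.46. All 6 lymphocyte markers that passed the filter were lower without a call (3 fell as TPM), with Nkg7 at 2.58 in sham and 0.851 in IR, and 10 others, Cd3e among them, were under an FPKM of 1 in both. Of 11 hepatocyte markers 0 were called (3 fell as TPM). Ttr was at 4241 in sham and 5765 in IR, the periportal Cps1 at 790.1 and 677, and the pericentral Cyp2e1 and Glul at 4782 and 402 in sham and 3139 and 247 in IR. Alb could not be read, since its locus held too many fragments for the software and is listed at 0 in every library.

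**Figure D3:**
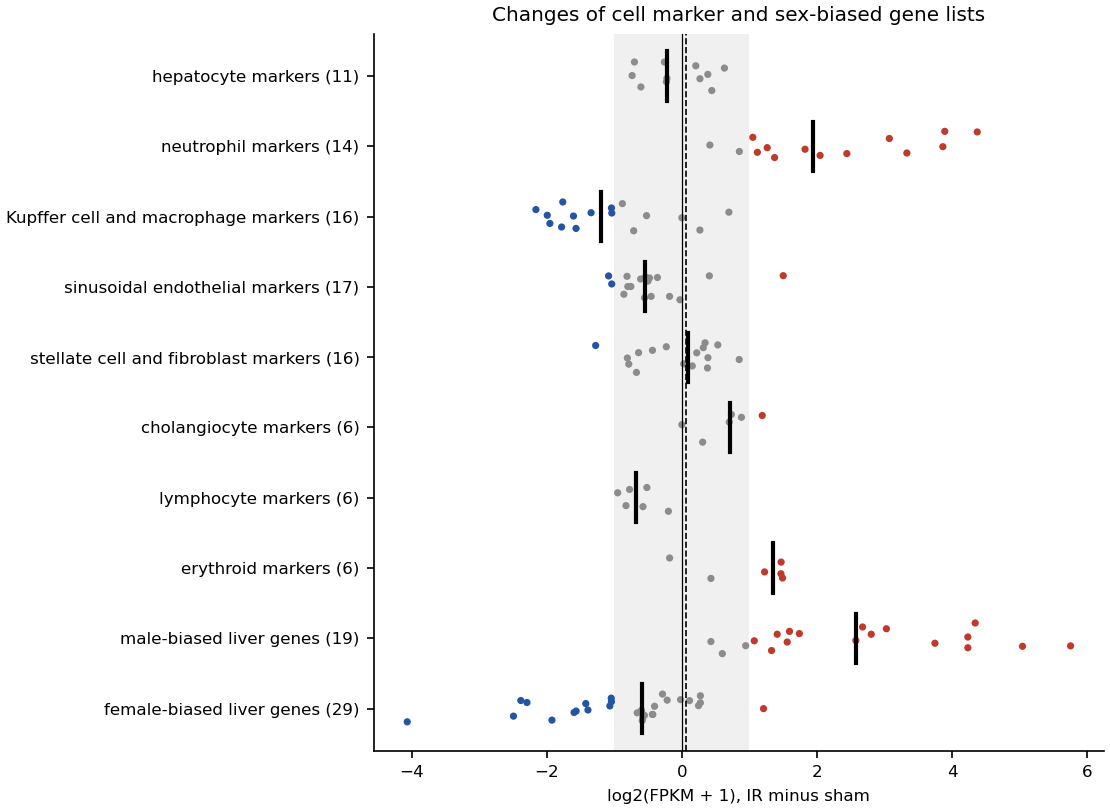
Changes in log2(FPKM + 1), IR minus sham, of 8 lists of cell markers and of the male-biased and female-biased liver genes, 1 point a gene, red where called higher and blue where called lower, with the number of members in parentheses. Black bars are list medians, the dashed line is the median of all members and the grey band holds changes under 2-fold. Neutrophil markers (median 1.94) and male-biased genes (2.58) lie to the right, Kupffer cell markers (-1.19) and female-biased genes (-0.60) to the left.

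Acute phase proteins are made by hepatocytes under IL-6 and IL-1. Of 31 members 11 rose, 3 with bounds apart, and 1 fell, and the list median of 0.49 turned to -0.09 as TPM (4 rises and 1 fall). The 3 with bounds apart were the iron-binding Lcn2, Steap4 and Il1rn. Lcn2 was at 121, 335 and 482 in sham, WI and IR, and Steap4 at 29.8, 49.7 and 141. The protease inhibitor Serpina3n was at 203, 171 and 1056, with overlapping bounds between sham and IR. The genes of the 3 fibrinogen chains, Fga, Fgb and Fgg, are neighbours on chromosome 3 and rose together, Fgb from 2180.1 to 5290.1, with overlapping bounds. The iron regulator Hamp rose from 1699.5 to 3514.5, with overlapping bounds. Saa1 and Saa2, the classical serum amyloid genes, were high in sham and not called, at 3414 and 2188 in sham and 3251 and 2756 in IR. Orm2 fell from 432 to 201. Among 23 coagulation genes 4 rose, all with bounds apart, and 0 fell, and the median of 0.22 turned to -0.31 as TPM (4 rises and 2 falls). None of the 4 that rose is a clotting factor made by hepatocytes. The fibrinogen genes above, which are, were counted on the acute phase list instead. Among the 4, Thbs1 (thrombospondin) went from 0.269 to 11.02, the urokinase receptor Plaur from 0.441 to 10.1 and thrombomodulin, Thbd, from 3.58 to 21.5. Of 26 complement genes 4 rose and 2 fell, and the median of 0.17 turned to -0.41 as TPM (1 rise and 4 falls). C9 rose from 109.9 to 309 and the receptor C5ar1 from 0.551 to 3.49, while C1qa and C1qc, which macrophages make, fell from 112 and 125 to 53.7 and 60.1. Of these genes C5ar1 alone had bounds apart. None of 18 apolipoprotein genes was called, and their median of 0.40 turned to -0.18 as TPM (0 rises and 1 fall).

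A gene of glucose release and a pair of glycogen genes were among the 15 largest falls with bounds apart. G6pc, the glucose-6-phosphatase that lets glucose leave the hepatocyte, was at 335 in sham (129.5 to 541), 152 in WI (69.9 to 234) and 78.1 in IR (39.2 to 117). The glycogen-targeting subunits of protein phosphatase 1, Ppp1r3b and Ppp1r3c, had bounds in WI that overlapped those of sham and fell in IR against sham, Ppp1r3b at 39.5, 26.6 and 6.20 and Ppp1r3c at 7.22, 5.44 and 1.01. Pck1, which commits carbon to glucose synthesis, was not called, at 1483 and 1238. Of 27 members of the glycolysis and gluconeogenesis list 2 rose and 3 fell, and the median of 0.17 turned to -0.41 as TPM (2 rises and 6 falls). Gapdh, the reference gene of the study's PCR, was at 850.1, 1231 and 1696, a change of 0.996 that lies just under the threshold, and its change as TPM was 0.41. Among glucocorticoid and fasting genes 2 of 22 rose and 5 fell, with a median of -0.56 (1 rose and 12 fell as TPM). Besides G6pc, these were Lpin1, at 149, 26.1 and 23.6, Lpin2, at 93.4, 58.3 and 45.5, Sgk1, at 30.0, 14.8 and 13.6, and the glucocorticoid target Fkbp5, at 72.4, 13.2 and 32.2. Lpin1 and Sgk1 were thus about as low in the WI library as in the IR library, and Fkbp5 was lower in WI. Cebpd and Angptl4 were the 2 genes that rose, to 32.8 from 9.64 and to 268 from 122. Bounds of sham and IR were apart for G6pc, Lpin1 and Cebpd and overlapped for the other called genes of this list.

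Clock genes turn over with the time of day, and sham and IR livers were taken at different times after surgery. Of 19 members 2 rose and 5 fell (1 and 9 as TPM). The repressor Nr1d1 (REV-ERB alpha) went from 5.06 in sham and 16.7 in WI to 47.0 in IR, while Usp2, a clock-controlled ubiquitin protease, was at 16.8, 14.9 and 4.19 and Per3 at 5.29, 8.15 and 2.12. Whether the hour of sampling differed is not stated, and its part was not tested.

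Genes of lipid and bile acid metabolism were called in both directions. Of 35 cholesterol and fatty acid synthesis genes 2 rose, Mvd from 7.30 to 16.7 and Hmgcs1 from 87.7 to 179, with overlapping bounds. Both were higher in the WI library (21.4 and 281). The list median of 0.29 turned to -0.26 as TPM, with 0 rises and 2 falls. Of 38 fatty acid oxidation genes 3 rose and 3 fell, none of them with bounds apart (0 and 7 as TPM). The lipid droplet protein Plin2 rose from 168 to 504, while Plin5 fell from 58.6 in sham to 23.5 in IR after 8.53 in WI, and the receptor gene Ppara fell from 41.2 to 17.2. Of 23 bile acid genes 3 rose and 2 fell (2 and 9 as TPM). The largest change of the list was that of Cyp7b1, the hydroxylase of the alternative pathway, which is also on the male-biased list and was at 8.31, 10.02 and 75.004 in sham, WI and IR, with bounds apart. Cyp7a1, the rate-limiting enzyme of bile acid synthesis, fell from 73.0 to 31.6 with overlapping bounds, and Slc51b, a basolateral exporter of bile acids, was at 0.733, 5.18 and 4.36. Among 28 urea cycle and amino acid genes Cbs and Sdsl rose, with overlapping bounds, and 0 fell. The median of 0.016 turned to -0.56 as TPM (0 rises and 5 falls). Among 35 conjugation enzymes 3 rose and 0 fell, and the median of 0.27 turned to -0.30 as TPM (1 rise and 2 falls), with Gsta1 at 1.25 in sham, 12.6 in WI and 8.36 in IR.

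Housekeeping complexes shifted together by amounts under the threshold. Of 72 respiratory chain subunits 70 were higher in IR by any amount and 1 was called, with a median of 0.58. Of 79 cytosolic ribosomal proteins all 79 were higher and 3 called, also with a median of 0.58. The same held for 72 of 75 mitochondrial ribosomal proteins (median 0.40) and 33 of 36 proteasome subunits (0.53). As TPM the first pair of medians lay at about 0 and the others at -0.13 and -0.046, with 35, 40, 18 and 13 members above 0, and 0, 2, 0 and 0 called higher, so that the direction depends on the scale of the IR library. In 18 cell cycle genes there were 0 calls on either scale, with a median of 0.22 that turned to -0.25 as TPM, and with Pcna at 22.7 and 33.7 and Ccnd1 at 14.8, 29.8 and 18.6 in sham, WI and IR. Of 26 growth factors and receptors of liver regeneration 5 rose and 1 fell, and the median of 0.17 turned to -0.37 as TPM (3 rises and 6 falls). Fst (follistatin) rose from 1.26 to 18.3, the activin subunit Inhbb from 1.43 to 9.67 and Egfr from 50.5 to 161, the last with overlapping bounds. Hgf, Met and Igf1 were not called. Of 13 noncoding RNAs 4 rose and 0 fell (1 and 1 as TPM), Neat1 from 6.64 to 33.9 with bounds apart, and Malat1 was at 7.78 and 4.91. Of 22 transcription factors of hepatocyte identity 3 rose and 1 fell (0 and 5 as TPM), and Hnf4a was not called.

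The lists of genes known to differ between male and female mouse liver moved with the Xist and Y-linked marks of the libraries. Of 19 male-biased genes 16 rose and 0 fell, with a median of 2.58 (13 rose as TPM), and of 29 female-biased genes 12 fell and 1 rose (19 fell and 0 rose as TPM). Cyp4a12a and Cyp4a12b, fatty acid hydroxylases found in male liver, were at 0.0792 and 0.0338 in sham, 0.216 and 0.0521 in WI and 57.4 and 33.1 in IR. Hsd3b5, a steroid reductase of male liver, was at 0.116, 0.319 and 21.7, and Cyp2d9 at 38.3, 38.5 and 739. Cyp3a16, Cyp3a44 and Cyp3a41a are members of a female-biased family of closely similar genes that can share reads, and the WI library was already below sham, with Cyp3a16 at 36.1, 1.84 and 1.21 and Cyp3a41a at 623, 143 and 126. Sham and WI both had Xist, and their Y-linked genes were listed at 0 or close to it. What lies behind the step from sham to WI in the Cyp3a genes was not tested. These lists hold 48 members, 17 of the 552 rises and 12 of the 218 falls. Of 56 P450 genes of families 1 to 4, 4 rose and 7 fell, and the median of 0.17 turned to -0.41 as TPM (3 rises and 14 falls). On the deposited scale 8 of these 11 are on the sex-biased lists, the others being Cyp2f2, Cyp2a5 and Cyp2c39.

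Of the 770 calls, 242 belong to genes on a list and 528 to genes on none. The 15 largest rises and the 15 largest falls with bounds apart include several of the latter. Tff3, a trefoil peptide of mucosal repair, was at 1.15 in sham, 0.823 in WI and 59.3 in IR, a change of 4.81. Chka, choline kinase, was at 2.83, 2.39 and 94.5, and the ephrin ligand Efna1 at 9.88, 31.8 and 182, so Efna1 was already above sham at the end of ischemia, with bounds apart. Selenbp2, on the male-biased list, rose from 13.7 to 275. In the other direction Gbp1, a guanylate-binding protein, was at 5.53, 3.90 and 0.470, and Tsku, a secreted leucine-rich protein of hepatocytes, at 44.3, 18.9 and 10.7.

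**Figure D4:**
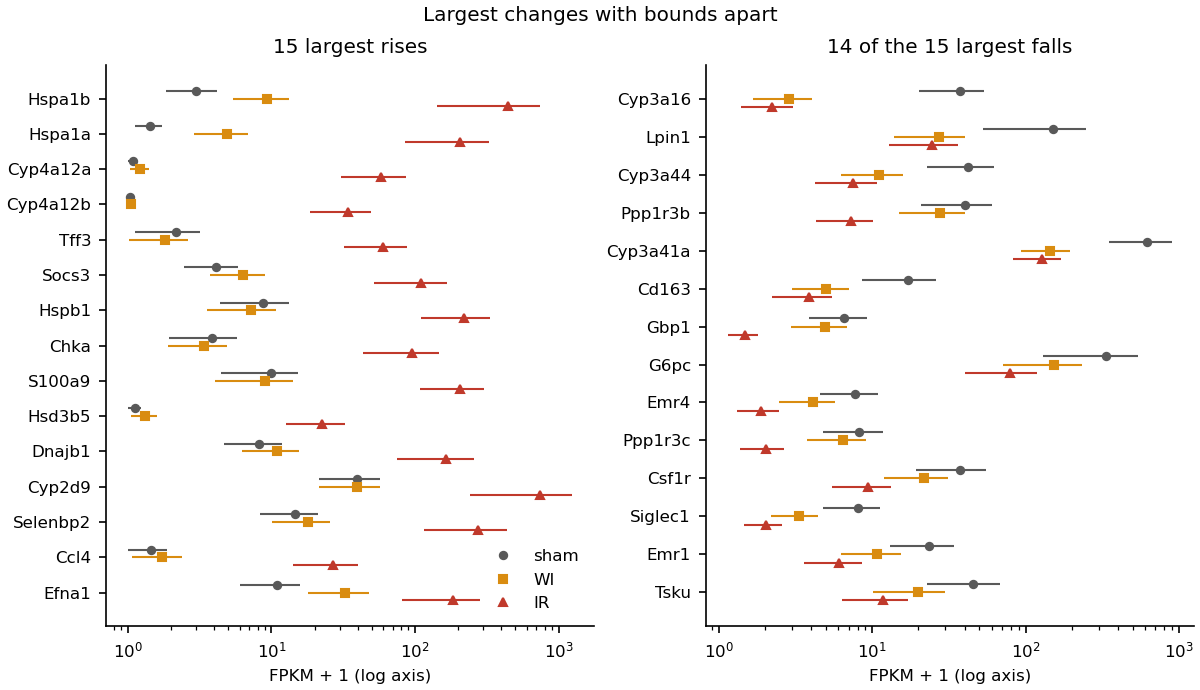
FPKM + 1 on a log axis in the sham (grey circles), WI (orange squares) and IR (red triangles) libraries for the 15 largest rises and 14 of the 15 largest falls among called genes with bounds apart, with lines from the lower to the upper 95% bound of Cuffdiff's model. Most rises show WI beside sham and IR far to the right, with Hspa1a, Hspa1b and Efna1 shifted already in WI, while Cyp3a16, Lpin1 and Cd163 show WI beside IR.

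The largest changes whose bounds overlapped were of another kind. The small nucleolar RNAs Snora64, Snord22 and Snora16a and the pseudogene Atp6v0c-ps2 were listed at 0 in sham and at 68.6, 20.1, 17.3 and 49.7 in IR, and Snora28, Snora21 and Snora7a were listed at 106, 20.5 and 18.4 in sham and 0 in IR. All 7 share their locus with a longer gene, the bounds of each reached 0, and no fold is given for them. LOC100048884 is a member by the rule, since it carries no Mup name, but lies within the span of the Mup genes on chromosome 4, between 59956806 and 62150841. It was at 158, 146 and 8800.1 in sham, WI and IR, with a lower bound of 0 in IR. Serpina1e, on the male-biased list, was at 538, 124 and 7242, again with a lower bound of 0. The apolipoproteins Apoa2, Apoe, Apoc1 and Apoa1 and fetuin, Ahsg, are among the most abundant members and were not called, with Apoa2 at 11170 in sham and 17704 in IR. At the threshold itself, Osmr (1.0003), Sco2 (1.01) and Cdc42ep5 (1.01) were just inside on the higher side and Srsf7 (0.999), Clic4 (0.998) and Slc2a3 (0.998) just outside. On the lower side Kcnj16 (-1.003), Deptor (-1.005) and Lrp4 (-1.005) were inside and Pdp2, Abcg3 and Tbc1d1 (-0.996 each) outside.

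The change of a gene went with the length of its transcript. Lengths of the longest coding transcript, from the NCBIM37 annotation by symbol, were found for 93.6% of the members. With the genes in 5 groups of nearly equal size, the median change was 0.38 in the shortest group (up to 1623 bases), then 0.19, 0.07 and -0.08, and -0.26 in the longest (from 4633 bases). In WI minus sham the same medians ran from 0.09 to -0.06. The share of genes called higher was 8.04% in the shortest group and 2.63% in the longest, and the share called lower 1.75% and 2.94%. Level went with the change too, with 3.65% of genes called higher where the mean FPKM of both libraries was under 2 and 9.97% where it was over 250. Ribosomal proteins, respiratory chain subunits, chemokines and S100 proteins have short transcripts, and the part of length in their changes was not tested.

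**Figure D5:**
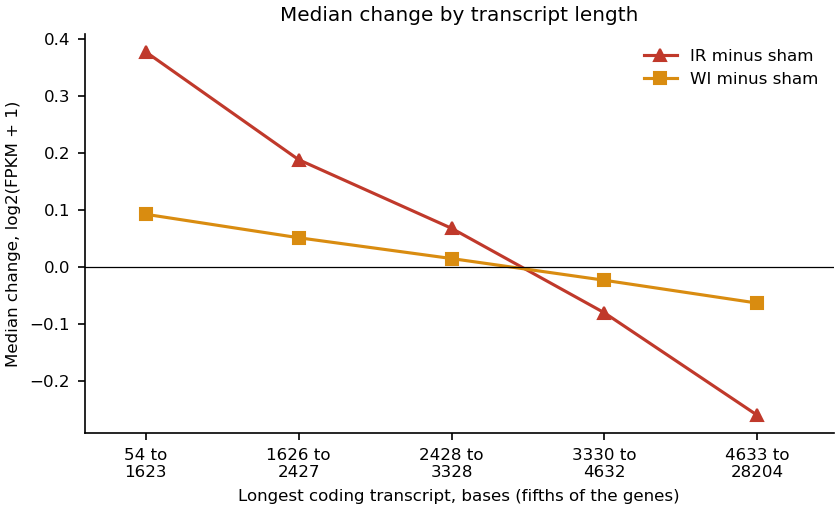
Median change in log2(FPKM + 1) of 9702 members in 5 groups by the length of their longest coding transcript in bases (x axis), for IR minus sham (red triangles) and WI minus sham (orange squares). The IR medians fall from 0.38 in the shortest group to -0.26 in the longest, a wider range than that of the WI medians.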

How the data were processed

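Liver RNA of 3 libraries (Sham, WI and IR, 1 each) was sequenced. According to the study's methods and processing notes, reads were aligned to mm10 with TopHat2 2.0.9 and quantified with Cufflinks and Cuffdiff 2.0.2. The authors deposited an FPKM per gene with 95% bounds and a status. The strandedness of counting is not given in the sources used here, and 1835 members share a locus with another gene, so their values are uncertain, as are those of close paralogs. The files hold no read counts, so the depth behind a value is unknown and its precision is taken from the deposited bounds, whose median coefficient of variation was 26.4% in sham and IR.

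Genes were joined on symbol and locus, and the change was log2(FPKM + 1), IR minus sham, with a pseudocount of 1 (Python 3.11.15, pandas 2.3.3). It understates changes of low genes. With 1 library a group no test was run. A call needed a 2-fold difference, and the procedure was tested on simulated data. The simulation left out genes of low sham FPKM and took its spread from Cuffdiff's bounds. It thus holds no variation between mice and says nothing on calls of low genes. Alternatives were other pseudocounts, filters, folds, gene exclusions and scalings. Named genes are the 15 largest rises and falls with bounds apart, up to 5 members of each list by size of change and its most abundant member, the genes of the study's PCR, members listed at 0 in a single library, those nearest the threshold and those with a printed promoter. Other genes, such as Fgb, Cxcl10 or Pck1, were named after their values were seen. Members and lists were chosen with earlier results of these data known. Promoters are from RefSeq (GRCm38.p6), and transcript lengths from the NCBIM37 annotation by symbol. A few list members are not reported here.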

Additional observations from a re-analysis of the deposited data

Results flagged for a closer look

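Genes outside the comparison told the libraries apart by sex, although every sample is labelled male. Xist was at an FPKM of 18.9 in the sham library, 20.1 in the WI library and 1.29 in the IR library. Ddx3y was listed at 0 in sham and was at 0.0085 in WI and 8.58 in IR. Eif2s3y, Kdm5d and Uty were listed at 0 in sham and WI and were at 13.2, 0.669 and 1.28 in IR. The summed FPKM of the Mup genes, abundant in male liver, was 11100 in sham, 10271 in WI and 89648 in IR, although several Mup genes are listed at 0 in IR for want of a usable estimate. Surgery and sex cannot be told apart in this design.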

How the results depend on the processing

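On the deposited scale 552 genes were higher and 218 lower, 268 and 99 of them with bounds apart. As TPM these counts were 239, 950, 144 and 400, and with a common sum over the genes kept 289, 651, 168 and 275, since both lower every IR value. The genes called lower numbered 592 with a pseudocount of 0.1 and 631 with 0.01. At 1.5-fold 1499 genes were higher and 982 lower. At 4-fold the counts were 126 and 14, and 114 and 11 with bounds apart. With an FPKM of at least 1 in both libraries 176 genes were higher with bounds apart, and with at least 5 in either 62 were lower with bounds apart, in both cases among fewer genes. The other 38 counts stayed within 1.5 times, among them 535 and 206 without the genes of the sex-biased lists. Those lists hold only 17 of the rises and 12 of the falls, so leaving them out could not move the counts by that much. The part of sex was not tested by it. Nor could the counts change without the filter, since a gene with an FPKM under 1 on both sides cannot reach 2-fold in FPKM + 1. Leaving out genes that share a locus (466 and 180) or LOC100048884 (551 and 218) was chosen after seeing the data. No called change of the 289 genes chosen by the naming rule turned sign under these alternatives, but none could have. The largest rescaling shifts a change by at most -0.58, less than the 2-fold threshold. Other pseudocounts, filters and exclusions leave the sign of a change as it is. Of 36 lists with a median above 0, 20 had a median below 0 as TPM. No paired analysis was possible because each group has 1 library, and leaving out a replicate was not possible for the same reason. Depth is unknown, so low values are limited by their bounds alone.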

Other observations

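The genes named here are on no list and were chosen after their values were seen. Several genes of MHC class II antigen presentation were called lower, and the class as a whole was not counted. H2-Aa was at 98.2 in sham, 79.4 in WI and 31.6 in IR, a change of -1.61, H2-Eb1 at 45.4, 40.4 and 16.03 (-1.45), and H2-Ab1 at 77.4, 62.0 and 29.4 (-1.37). Cd74, the invariant chain, was at 181, 135 and 63.4 (-1.50), with overlapping bounds. The 4 genes H2-DMb1, H2-Ab1, H2-Aa and H2-Eb1 lie together on chromosome 17, and the stretch from the first to the last of them holds 8 members. The receptors for dying cells Axl and Mertk fell from 13.1 and 9.10 to 3.25 and 2.88. Their level moved with that of the Kupffer cell markers, whose part was not tested.

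The keratins of hepatocytes, Krt8 and Krt18, form filaments with each other and rose by nearly the same amount, Krt8 from 69.4 in sham and 112 in WI to 492 in IR and Krt18 from 46.9 and 86.4 to 335 (changes of 2.81 each). The tight junction gene Cldn14 was at 6.17, 6.01 and 94.6 in sham, WI and IR. On chromosome 13, 6 histone genes that lie near each other were called higher, with overlapping bounds, among them Hist1h1c with a change of 1.42. The stretch from the first to the last of them holds 9 members. Its ends were set by the called genes, which raises the share called.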
